A study of Mus musculus with 2 samples.

Results

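Angiopoietin 1 and angiopoietin 2 (Angpt1, Angpt2), their receptor Tek (also called Tie2), the related receptor Tie1, apelin (Apln) and the apelin receptor (Aplnr) were followed through 2 single-nucleus RNA libraries of mouse muscle. The genes were taken by symbol, and all 6 were present among the 32285 genes of the count tables. Nuclei were taken from the tibialis anterior, a shin muscle, in male mice 16 to 20 weeks old. The animals had chronic kidney disease and were studied 5 days after the femoral artery, which feeds the leg, had been tied off. The AHRfl/fl library came from mice whose aryl hydrocarbon receptor gene (Ahr) carries recombination sites, and the AHRmKO library from mice with the muscle knockout. Both carry the same strain label, a cross between AHRtm3.1Bra/J (the floxed Ahr allele) and the line Tg(ACTA1-cre/Esr1*)2Kesr/J, in which a skeletal actin promoter active in muscle fibres drives a ligand-dependent Cre. The labels do not say whether the AHRfl/fl mice carried the Cre, which agent induced it, how kidney disease was produced or how many animals gave each library. The libraries permit a comparison of angiogenic signalling genes between the genotypes in nuclei of each type, with 1 library per group and so without a test between groups.

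Angpt1 is secreted by cells around vessels, activates Tek on endothelial cells and keeps vessels stable. Angpt2 is released by activated endothelial cells and can block or activate Tek depending on context, and vessels remodel where it prevails. Tie1 pairs with Tek and tunes its signal. Apln is a peptide made by sprouting endothelial cells, and Aplnr is a G protein-coupled receptor found on venous and growing endothelium that directs vessel growth.

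The deposited counts are unique molecular identifiers (UMIs), each standing for 1 captured RNA molecule. The libraries held 151788328 UMIs (AHRfl/fl) and 113737134 UMIs (AHRmKO), and 17070 and 7660 nuclei were kept, with a median of 3675.5 and 3593 UMIs. The median mitochondrial share was 0.908% (AHRfl/fl) and 2.33% (AHRmKO). In all that follows, where a pair of values has no label, the AHRfl/fl value comes first. Barcodes of 200 to under 500 UMIs, called low barcodes here and taken to hold mostly free RNA and fragments, carried 21.9% and 42.0% of all UMIs. The nuclei of the libraries shared 33 barcodes. Nuclei were named from marker genes and are called endothelial-like (268 AHRfl/fl and 142 AHRmKO nuclei, with 13 of 13 markers raised), fibroblast-like (1396 and 649, including fibroadipogenic progenitors), adipocyte-like (103 and 76), satellite-like (3054 and 1928, with myoblasts), immature myonucleus-like (4038 and 1778), myofibre-like (381 and 582) and macrophage-like (5966 and 2458). Another 1836 and 22 nuclei stayed unnamed, among them 904 and 9 in a cluster with 8 of 9 macrophage markers, 296 and 0 in a deep cluster with immature myonucleus markers, and 38 and 7 with 12 of 13 endothelial markers. The first 3 classes were each 1 cluster holding both libraries, whereas most satellite-like, immature myonucleus-like, myofibre-like and macrophage-like nuclei of the libraries lay in different clusters. Pericyte-like or smooth muscle-like nuclei numbered 18 and 4, too few for a comparison. Within the fibroblast-like class, a subcluster of 379 and 18 nuclei had 4 of 10 pericyte or smooth muscle markers raised over the other subclusters. A cycling one of 71 and 56 nuclei had 3 of 10. Ahr itself gave 5 and 13 UMIs in myofibre-like nuclei (2.77 and 6.44 CPM, the UMIs of a gene per 1000000 UMIs of the class), so the counts there could not check the knockout, and tags from outside the deleted exons would not show it. In immature myonucleus-like nuclei Ahr stood at 30.7 and 31.6 CPM.

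The libraries differ in genes that lie inside a gene of the other strand, as 1 of the members does. Angpt2 (ENSMUSG00000031465, chr8:18690263-18741562 in GRCm38, minus strand) lies over its whole length of 51300 bases inside Mcph1, a gene of chromosome condensation read from the plus strand, and none of its exons overlaps an exon of Mcph1. Whether the counting used the strand of a read is not given in the sources used here, so Angpt2 RNA and Mcph1 pre-mRNA could not be told apart with certainty. Across fibroblast-like nuclei, 78.0% of 805 genes that lie likewise inside a more abundant gene of the other strand were lower by 2-fold or more in the AHRmKO library, against 15.1% of the 14936 other genes. In endothelial-like nuclei these shares were 80.6% of 355 and 22.0% of 11676. The share of lower nested genes was between 64.5% and 80.6% in all 7 classes. The median log2 ratio of nested genes, AHRmKO over AHRfl/fl, was -2.40 in fibroblast-like and -4.01 in endothelial-like nuclei. Angpt2 stood at -3.63 and -0.58 there, with 137 of 805 and 299 of 355 nested genes at or below it. Whether this pattern bears on the Angpt2 values was not tested. The other members have no such host. Tek (ENSMUSG00000006386) lies at chr4:94739289-94874976 on the plus strand, Tie1 (ENSMUSG00000033191) at chr4:118471191-118490061 on the minus strand, Apln (ENSMUSG00000037010) at chrX:48025146-48034853 on the minus strand, and Aplnr (ENSMUSG00000044338) at chr2:85136225-85139923 on the plus strand. Angpt1 (ENSMUSG00000022309, chr15:42424723-42676977, minus strand) shares 737 bases at its start with the opposite-strand gene Gm17473, which had at most 39 UMIs in any of the 7 classes of a library.

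The promoters of Tek and Apln are shown because Tek was the member with ratios of both signs among those whose interval leaves out 0, and Apln the one with the fewest UMIs. Each is the run of 250 bases before the gene's start from RefSeq on GRCm38.p6, 5′ to 3′ on the gene's own strand. The letters GGAA, the core bound by ETS factors, are in capitals on either strand (as GGAA or TTCC). The Tek window is chr4:94739039-94739288 and the Apln window is chrX:48034854-48035103.

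Tek: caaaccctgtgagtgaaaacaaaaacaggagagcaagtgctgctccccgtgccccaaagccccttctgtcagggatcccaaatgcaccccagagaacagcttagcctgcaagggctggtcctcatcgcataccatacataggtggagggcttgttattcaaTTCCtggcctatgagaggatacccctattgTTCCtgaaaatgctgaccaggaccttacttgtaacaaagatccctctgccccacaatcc

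Apln: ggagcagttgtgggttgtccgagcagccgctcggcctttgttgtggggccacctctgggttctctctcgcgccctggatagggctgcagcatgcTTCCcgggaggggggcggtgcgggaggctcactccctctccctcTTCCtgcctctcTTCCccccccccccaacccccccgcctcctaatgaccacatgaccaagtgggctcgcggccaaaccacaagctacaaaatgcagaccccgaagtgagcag

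The core occurred 2 times before Tek and 3 times before Apln. It was present in 93.4% of 32851 promoter windows of this length, so its presence is the rule among genes. The motif ACGTG, searched on both strands as a core of hypoxia response elements, occurred in neither window. It was present in 16.6% of the 32851 windows, so its absence is the rule among genes.

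**Figure D1:**
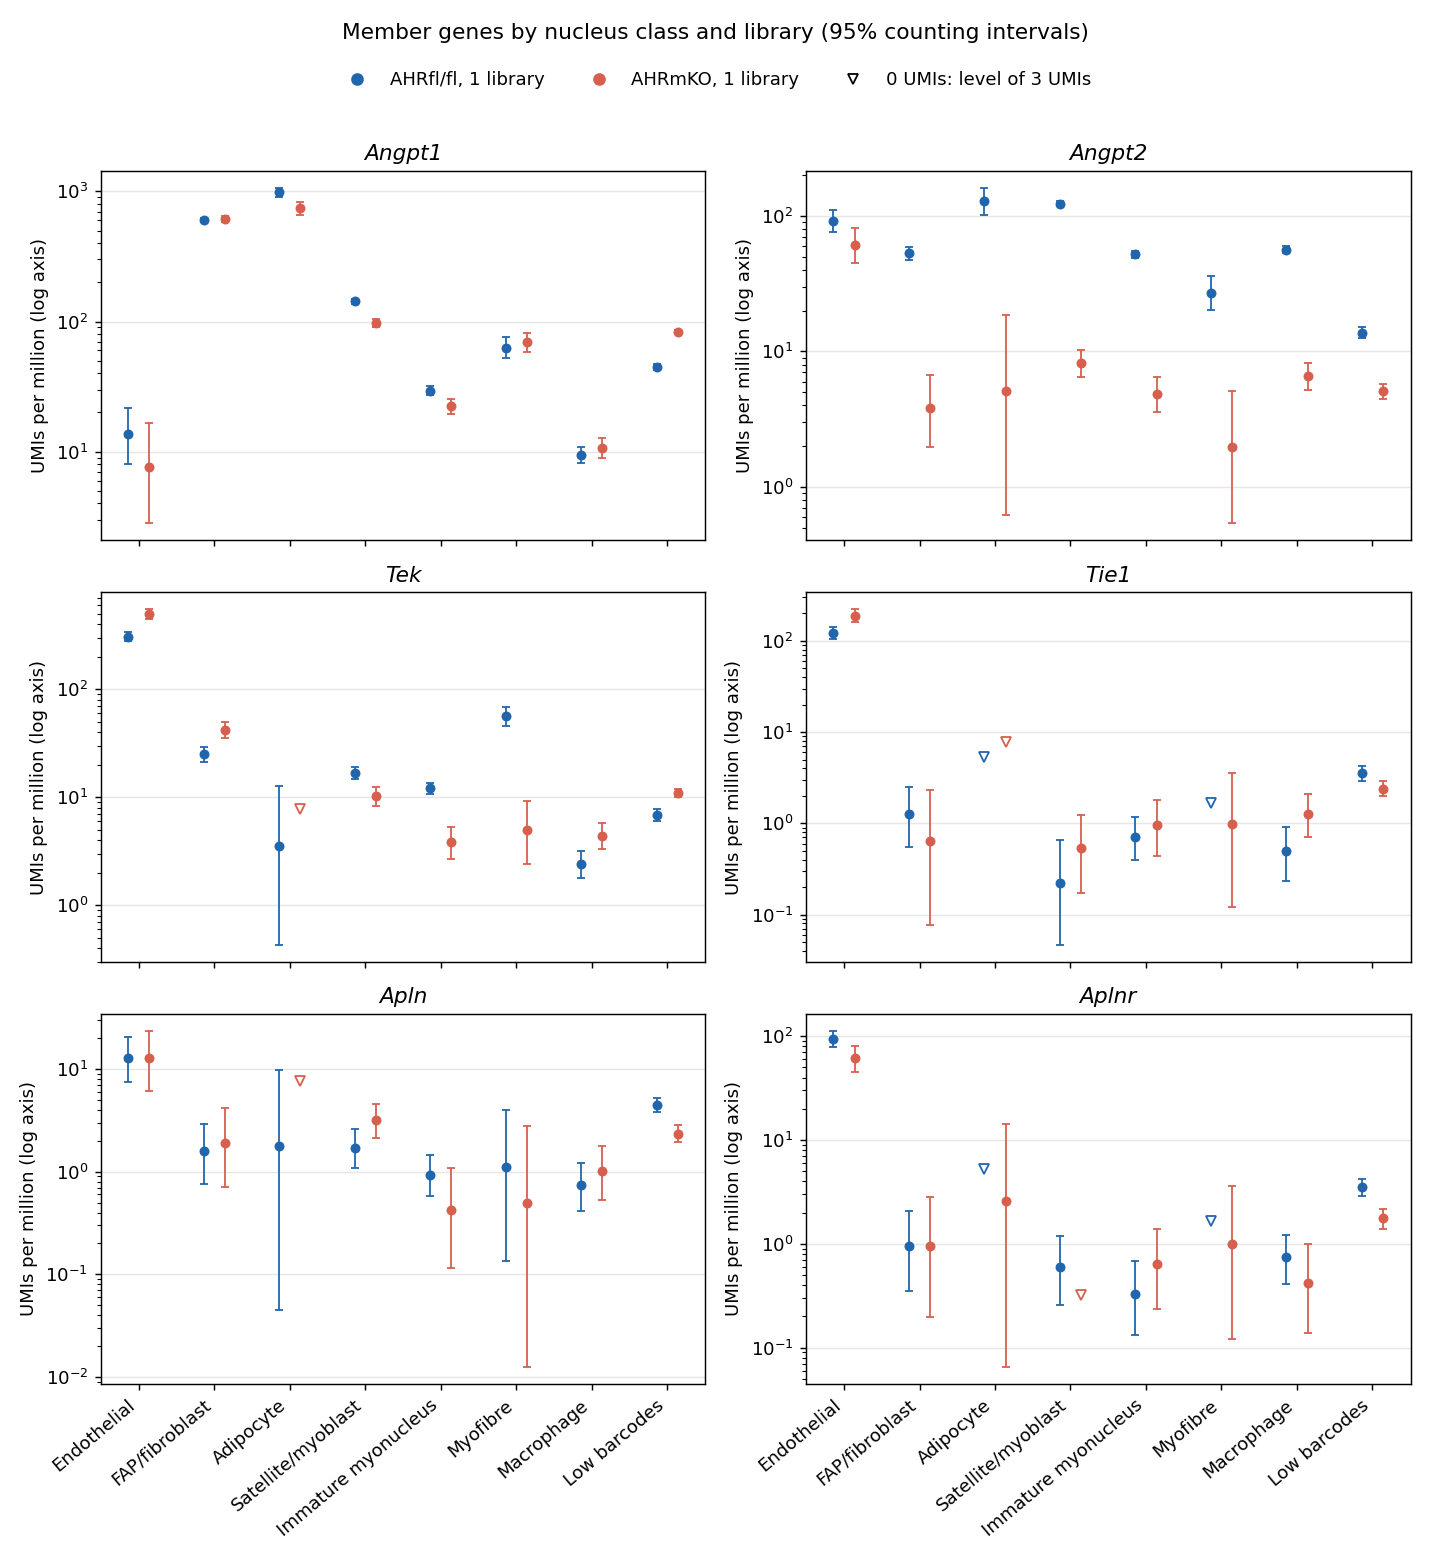
CPM of the 6 genes (log axes) in 7 classes of nuclei and in low barcodes (200 to under 500 UMIs), with 95% Poisson counting intervals; blue is the AHRfl/fl library, red the AHRmKO library, and open triangles mark 0 UMIs at the level of 3 UMIs. Angpt1 is highest in adipocyte-like and fibroblast-like nuclei, Tek, Tie1 and Aplnr are highest in endothelial-like nuclei, and Angpt2 is high in every blue class but only in endothelial-like nuclei among the red points.

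Angpt1, the activating ligand, was counted mainly outside the endothelium. All levels are in CPM, with 95% Poisson intervals that cover counting error only, and for a count of 0 the limit given is the level of 3 UMIs. In adipocyte-like nuclei the level was 985 (905 to 1070.1) in the AHRfl/fl library and 741 (658 to 832) in the AHRmKO library. In fibroblast-like nuclei it was 602 (583 to 622) and 613 (586 to 641). Satellite-like nuclei followed with 143 and 97.6, myofibre-like nuclei with 63.1 and 69.4, and immature myonucleus-like nuclei with 29.5 and 22.3. The order of these 5 classes was the same in both libraries, and no neighbours in it had overlapping intervals, but first place in the AHRmKO library hung on 1 adipocyte-like nucleus, without which the level was 553. Endothelial-like nuclei (13.7 and 7.66) and macrophage-like nuclei (9.51 and 10.7) came last, with overlapping intervals. Low barcodes stood at 44.9 and 83.2, above these 2 classes and the immature myonucleus-like one in both libraries, and above myofibre-like nuclei in the AHRmKO library. Fibroblast-like nuclei supplied 49.2% and 53.1% of all Angpt1 UMIs in nuclei, and satellite-like nuclei 24.8% and 25.5%. A UMI of Angpt1 was seen in 69.0% and 63.0% of fibroblast-like nuclei (median depth 3953.5 and 3259 UMIs) and in 2.73% and 4.88% of macrophage-like nuclei (2886.5 and 3260.5 UMIs). With each nucleus thinned to 2000 UMIs these shares were 54.3% and 49.6%, and 1.86% and 2.89%.

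The ratio of Angpt1 between the libraries depended on whether classes or clusters were compared. Ratios are log2 of the AHRmKO library over the AHRfl/fl library with 0.5 CPM added, and their 95% intervals cover counting error. In fibroblast-like nuclei the log2 ratio was 0.03 (-0.05 to 0.11). Inside that class, 771 of the AHRfl/fl nuclei formed 1 subcluster with a level of 783, and 554 of the AHRmKO nuclei formed another with a level of 592, led by the early response genes Fosb and Fos. Where a subcluster held over 10 nuclei of each library the level was higher in the AHRmKO library: 480 and 652 in the cycling subcluster (log2 ratio 0.44, 0.18 to 0.70) and 199 and 309 in the subcluster with tendon markers (0.64, 0.01 to 1.28). Another shared subcluster, with 379 and 18 nuclei, gave 447 and 894. By the naming rule this one and the cycling one were nearest to pericytes or smooth muscle, with 4 and 3 of 10 markers raised over the other subclusters. In satellite-like nuclei the class ratio was -0.55 (-0.66 to -0.44), yet none of its 3 clusters had a lower level in the AHRmKO library. Those levels were 154 and 159 in the first (log2 ratio 0.04, -0.49 to 0.52) and 131 and 197 in the second (0.58, 0.20 to 0.95). In the third they were 57.3 and 92.3 (0.68, -0.20 to 1.75). A single AHRmKO nucleus held 54 Angpt1 UMIs. It lay in the second cluster, which had 66 from that library, or in the third, which had 818. The library with fewer nuclei had 26, 24 and 46 nuclei in these clusters. In the first and second clusters those few nuclei were deeper than the AHRfl/fl ones. The 26 held 220453 UMIs beside 7212932 in 1900 nuclei, and the 24 held 335073 beside 5985256 in 1108. By these nuclei, the class ratio does not describe any 1 of its clusters, though the second was not computed without the nucleus of 54 UMIs. Myofibre-like nuclei gave 62.7 and 34.3 (log2 ratio -0.86, -1.76 to -0.09) in their 1 cluster with nuclei of both libraries, beside a class ratio of 0.14 (-0.23 to 0.51). In adipocyte-like nuclei the log2 ratio was -0.41 (-0.62 to -0.20), but it ranged from -0.91 to 0.12 over the alternatives. The AHRmKO adipocyte-like nucleus named above held 91 of the 288 UMIs.

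Angpt2, the ligand of remodelling vessels, was lower by 2-fold or more in the AHRmKO library in each of the 6 classes outside the endothelium, on counts that may include reads of Mcph1. In the AHRfl/fl library its level ran from 27.1 in myofibre-like to 128 in adipocyte-like nuclei and was 91.9 (76.3 to 109.8) in endothelial-like nuclei, so the endothelium did not stand out. In the AHRmKO library the endothelial level was 61.3 (45.2 to 81.2), and the 6 other classes lay between 1.98 and 8.18. Outside the endothelium the log2 ratios lay between -3.83 in satellite-like and -3.00 in macrophage-like nuclei, apart from the adipocyte-like one of -4.51 (-7.71 to -2.74), which rests on 2 AHRmKO UMIs and ranged from -8.28 to -3.72 over the alternatives. In endothelial-like nuclei the ratio was -0.58 (-1.10 to -0.09), but 30 of the 48 AHRmKO UMIs lay in a subcluster of 18 AHRmKO and 5 AHRfl/fl nuclei. In the endothelial-like subclusters with over 10 nuclei of each library Angpt2 was lower in the AHRmKO library: 112 and 9.98 from 8 and 1 UMIs in arterial-like nuclei (log2 ratio -3.42, -8.96 to -0.59), and 352 and 21.1 from 25 and 3 UMIs in cycling nuclei (-4.03, -6.43 to -2.35). In immature myonucleus-like nuclei the ratio was -3.28. It was -0.50 with a minimum of 1000 UMIs per nucleus, but over another set of nuclei: a cluster with 1643 AHRmKO nuclei then stayed unnamed, and the class kept clusters with 20, 8 and 1 of them. In the main clustering their 1 cluster with over 10 nuclei of each library (67 and 1772) gave 7.85 and 4.94 from 2 and 46 UMIs (log2 ratio -0.62, -2.60 to 2.42). Without a subcluster of 83 AHRfl/fl and 4 AHRmKO endothelial-like nuclei that also carried macrophage markers, endothelial Angpt2 was 119 and 63.2, a log2 ratio of -0.90 (-1.46 to -0.37). Mcph1, the host gene, had log2 ratios between -0.11 and 0.48 in the same classes.

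Set against Mcph1, Angpt2 in the AHRfl/fl library varied less between the 6 classes outside the endothelium than its CPM level did. There were between 43.4 and 63.5 Angpt2 UMIs per 100 Mcph1 UMIs in these classes, and 35.4 (31.7 to 39.4) in low barcodes. Immature myonucleus-like (63.5, 58.8 to 68.5) and macrophage-like nuclei (51.4, 47.8 to 55.2) had intervals that did not overlap. In the AHRmKO library the same 6 classes gave 1.53 to 6.47. In endothelial-like nuclei the values were 80.7 (63.0 to 103) and 47.1 (32.7 to 66.9). The 18 AHRfl/fl pericyte-like nuclei had 12 Angpt2 and 10 Mcph1 UMIs. Among AHRfl/fl endothelial-like subclusters, described below, they were 52.5 (35.2 to 77.2) in the one with macrophage markers and 59.4 (31.8 to 108) in the venous-like one, within the range of the other classes. They were higher in capillary-like (142, 63.8 to 325) and cycling nuclei (192, 94.7 to 409). In the AHRmKO library they were 38.9 (19.4 to 73.9) in venous-like, 12.5 (0.282 to 93.2) in arterial-like and 7.50 (1.48 to 23.5) in cycling nuclei. The part of Mcph1 reads in the Angpt2 values and ratios was not tested in any class. The AHRmKO endothelial level rested on few nuclei: 14 of 142 had a UMI (9.86%), 1 of them held 14 of the 48 UMIs, and without it the level was 43.8. In the AHRfl/fl library 76 of 268 had a UMI (28.4%). The macrophage-like shares were 15.2% and 2.81%. Thinned to 2000 UMIs, the endothelial-like shares were 13.8% and 5.63% and the macrophage-like ones 10.1% and 0.976%.

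**Figure D2:**
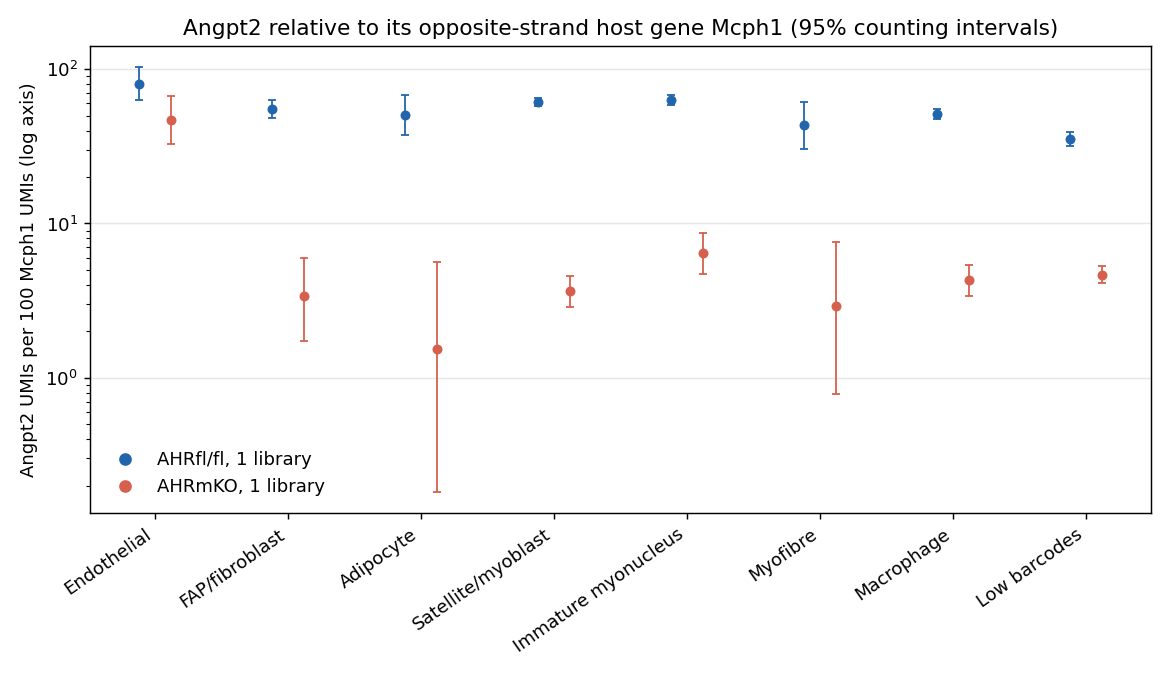
Angpt2 UMIs per 100 UMIs of Mcph1 (log axis), the gene that encloses Angpt2 on the opposite strand, in 7 classes of nuclei and in low barcodes (200 to under 500 UMIs), with 95% counting intervals; blue is the AHRfl/fl library and red the AHRmKO library. The blue points outside the endothelium lie between 35.4 and 63.5, the red ones between 1.53 and 6.47, and the endothelial points at 80.7 and 47.1.

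Tek, the angiopoietin receptor, was highest in endothelial-like nuclei, at 306 (277 to 337) CPM in the AHRfl/fl library and 496 (448 to 548) in the AHRmKO library. These rested on 403 and 389 UMIs. The next class was myofibre-like nuclei in the first library, 5.48-fold lower, and fibroblast-like nuclei in the second, 11.8-fold lower. The endothelial log2 ratio was 0.70 (0.49 to 0.90). It moved with the make-up of the class: the subcluster of 83 AHRfl/fl and 4 AHRmKO nuclei had all 9 macrophage markers raised and a median of 5449 UMIs. The 9 macrophage markers summed to 2324 and 244 CPM in endothelial-like nuclei, and the 13 endothelial markers to 10766 and 15132. Without that subcluster the macrophage markers summed to 978 and 166, the endothelial markers to 15413 and 15428, Tek stood at 440 and 506, and its log2 ratio was 0.20 (-0.02 to 0.43). Markers of other classes still differed in these nuclei. Fibroblast markers summed to 1073 and 134 CPM, and myofibre markers to 3389 and 1181. Pericyte or smooth muscle markers summed to 189 and 48.7, and adipocyte markers to 345 and 378. Whether such RNA bears on the endothelial ratios was not tested.

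In muscle nuclei Tek went the other way. Myofibre-like nuclei had 101 UMIs in the AHRfl/fl library and 10 in the AHRmKO library, which is 55.9 (45.5 to 67.9) and 4.96 (2.38 to 9.12) CPM, a log2 ratio of -3.37 (-4.60 to -2.56). The AHRfl/fl UMIs were spread over 79 of 381 nuclei (20.7%), with no more than 3 in a nucleus, and the AHRmKO UMIs over 9 of 582 (1.55%). Thinned to 2000 UMIs the shares were 11.02% and 1.20%. The 13 endothelial markers summed to 66.4 and 116 CPM in these nuclei, and Tie1 had 0 and 2 UMIs. The ratio was -1.91 with each library clustered on its own and -2.28 at a clustering resolution of 1.5. In these settings the class also took in 1445 and 1288 AHRfl/fl nuclei of clusters with Pkhd1 and Gm11149 among their leading genes, as in immature myonucleus-like clusters of the main run. With free RNA subtracted it was -5.52, and the AHRmKO level lay under that of low barcodes (10.9). Inside the 1 myofibre-like cluster with nuclei of both libraries (380 and 110) Tek was 56.0 and 9.14, a log2 ratio of -2.55 (-4.52 to -1.22). The other myofibre-like cluster held 1 AHRfl/fl and 472 AHRmKO nuclei, and myofibre markers summed to 31708 and 95585 CPM in the class. In immature myonucleus-like nuclei Tek was 12.01 (10.6 to 13.6) and 3.83 (2.68 to 5.30) (log2 ratio -1.53, -2.20 to -1.14), and -0.95, short of 2-fold, with 5 CPM added. Myofibre markers summed to 24898 and 57439 CPM in this class. In the cluster of 67 and 1772 nuclei Tek was 3.92 from 1 UMI and 3.87 from 36 (log2 ratio -0.02, -2.59 to 5.32), too few UMIs to tell whether the ratio of the class held within it. The satellite-like class ratio of -0.68 (16.7 and 10.2) was not seen inside its 3 clusters, which had 19.7 and 27.2, 13.4 and 14.9, and 5.73 and 9.59, although with 6, 5 and 1 UMIs in the library with fewer nuclei their intervals include it.

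Fibroblast-like nuclei carried some Tek, 25.0 (21.2 to 29.2) and 42.2 (35.3 to 50.04) CPM, with a log2 ratio of 0.75 (0.41 to 1.10). Without the 122 AHRfl/fl nuclei of a subcluster with macrophage markers it was 0.67 (0.33 to 1.03). The cycling subcluster of both libraries gave 23.1 and 63.6, and the subcluster of 379 and 18 nuclei gave 16.2 and 65.2 from 26 and 14 UMIs. Both are the subclusters with pericyte or smooth muscle markers raised. They held 11 and 26 of the 157 AHRfl/fl Tek UMIs of the class and 25 and 14 of the 132 AHRmKO ones. Most Tek UMIs of the class thus lay in its other subclusters. The 13 endothelial markers summed to 157 and 181 CPM in fibroblast-like nuclei, and Tie1 stood at 1.27 and 0.639. Macrophage-like nuclei had 2.41 and 4.40 of Tek, under the low barcodes (6.87 and 10.9), and the 13 endothelial markers summed to 74.9 and 125 CPM in them. Inside their cluster of 625 and 411 nuclei Tek was 3.61 and 2.74 from 10 and 7 UMIs (log2 ratio -0.34, -2.03 to 1.15), and in that of 273 and 30 it had 5 UMIs and 0. The adipocyte-like nuclei had 2 UMIs and 0, which allows up to 7.72 CPM.

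Tie1, the partner of Tek, was the member most concentrated in endothelial-like nuclei, which held 75.2% and 81.3% of its UMIs in nuclei. The endothelial level was 122 (104 to 143) from 161 UMIs in the AHRfl/fl library and 189 (160 to 222) from 148 UMIs in the AHRmKO library, and 116 of 268 (43.3%) and 83 of 142 (58.5%) nuclei had a UMI (24.3% and 31.0% when thinned to 2000 UMIs). None of the 6 other classes exceeded 1.27 in either library, beside 3.56 and 2.41 in low barcodes. The log2 ratio of 0.63 (0.30 to 0.96) became 0.12 (-0.24 to 0.48) without the subcluster with macrophage markers, where Tie1 stood at 179 and 194. Tie1 had no UMI in adipocyte-like nuclei of either library, which allows up to 5.28 and 7.72 CPM.

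Apln was rare. Endothelial-like nuclei had 17 and 10 UMIs, which is 12.9 (7.52 to 20.7) and 12.8 (6.12 to 23.5) CPM, and only 6 nuclei in each library carried a UMI. A single AHRfl/fl nucleus, of the subcluster with macrophage markers, held 10 of the 17, and without it the level was 5.36. The log2 ratio was -0.02 (-1.31 to 1.19), an interval that leaves differences of over 2-fold in either direction. Without that subcluster 7 and 9 UMIs remained (10.5 and 11.8 CPM), with a log2 ratio of 0.17 (-1.42 to 1.83). In the other 6 classes Apln stayed at or below 3.19, beside 4.49 and 2.35 in low barcodes. Satellite-like nuclei had 23 and 30 UMIs (1.72 and 3.19), the most of any class, and the 30 AHRmKO UMIs lay in 28 of 1928 nuclei.

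Aplnr, the apelin receptor, had most of its UMIs in endothelial-like nuclei. It gave 124 UMIs in the AHRfl/fl library and 48 in the AHRmKO library, or 94.2 (78.3 to 112) and 61.3 (45.2 to 81.2) CPM. These were 73.4% and 73.8% of its UMIs in nuclei. A UMI was found in 71 of 268 (26.5%) and 27 of 142 (19.0%) nuclei, against 0.251% and 0.203% of macrophage-like nuclei. Thinned to 2000 UMIs the endothelial-like shares were 19.0% and 5.63%. The log2 ratio was -0.62 (-1.13 to -0.13), and it ranged from -2.09 to -0.38 over the alternatives. Unlike those of Tek and Tie1, it moved away from 0 without the subcluster with macrophage markers, where the levels were 149 (121 to 181) and 63.2 (46.6 to 83.8) and the log2 ratio -1.23 (-1.76 to -0.72). The 6 other classes had at most 2.57 CPM, a value from 1 UMI, beside 3.50 and 1.76 in low barcodes. In satellite-like nuclei there were 8 UMIs and 0 of Aplnr, which allows up to 0.319 CPM.

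**Figure D3:**
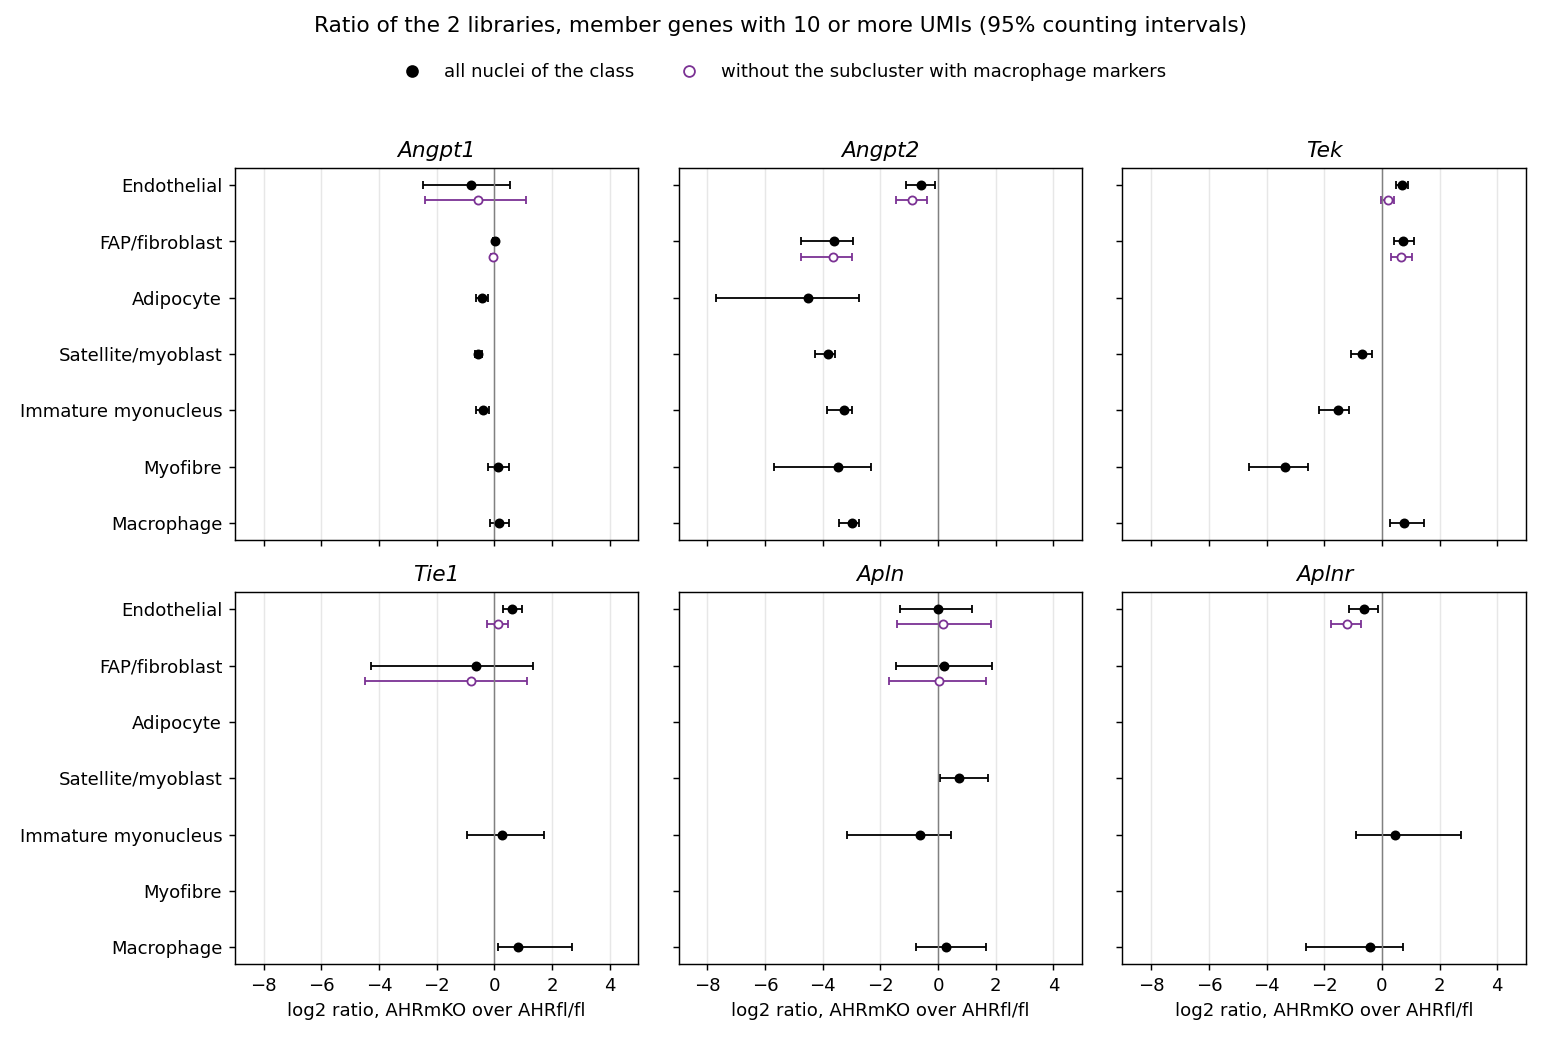
Log2 ratio of the AHRmKO library over the AHRfl/fl library for each gene with 10 or more UMIs in a class (horizontal axis; classes on the vertical axis), with 95% counting intervals; black points are all nuclei of the class and open purple points leave out the subcluster with macrophage markers. Tek is above 0 in endothelial-like (0.70), fibroblast-like (0.75) and macrophage-like nuclei (0.75) and below 0 in satellite-like (-0.68), immature myonucleus-like (-1.53) and myofibre-like nuclei (-3.37), and the endothelial-like purple points of Tek (0.20) and Tie1 (0.12) lie closer to 0 than the black ones.

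The ratios were then read against those of all genes. Genes with at least 10 UMIs in a class were counted, and past 2-fold means a log2 ratio of at least 1 or at most -1. In endothelial-like nuclei none of the 6 members was past 2-fold, while 5.88% of 12031 genes were higher and 23.8% lower, and the median log2 ratio of all genes was -0.16. The median of the 6 members was -0.30. Without the subcluster with macrophage markers Aplnr alone was past 2-fold, where 6.43% of genes were higher and 17.2% lower. Over all alternatives Aplnr reached -2.09, Apln 1.44 and Angpt1 -3.81, so the absence of calls holds for the main run only. In fibroblast-like nuclei 5 members were counted and Angpt2 was lower, beside 18.4% of all genes (17.1%, and 5.93% higher, without the subcluster with macrophage markers). In the adipocyte-like class 1 of 2 was lower (Angpt2, background 15.9%), in the satellite-like class 1 of 4 (Angpt2, 17.2%) and in the macrophage-like class 1 of 6 (Angpt2, 16.9%). In immature myonucleus-like nuclei Angpt2 and Tek were lower among 6, beside 17.2%, and each lost that call under 1 alternative: Angpt2 at -0.50 in the class without its main AHRmKO cluster, and Tek at -0.95. There the all-gene median was -0.16, and centring on it changed the genes past 2-fold from 882 higher and 3078 lower to 1354 and 2566. In myofibre-like nuclei 2 of 3 were lower (Angpt2 and Tek), beside 20.4%, and Tek stood at the 3.39th percentile of genes. For Angpt2 these shares of all genes are not the nearest background. Of genes that likewise lie inside a more abundant gene of the other strand, far more were lower by 2-fold or more. Outside the endothelium their share ran from 64.5% in macrophage-like to 78.0% in fibroblast-like nuclei. In the main run no member was higher by 2-fold in any class, where the background ran from 4.18% in macrophage-like to 10.9% in adipocyte-like nuclei (4.92% in immature myonucleus-like, 5.86% in fibroblast-like, 6.07% in satellite-like and 10.8% in myofibre-like nuclei).

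Inside the endothelial-like class the receptors and ligands were not spread evenly. Sub-clustering gave an arterial-like group (20 AHRfl/fl and 21 AHRmKO nuclei, 6 of 6 arterial markers raised), a venous-like group of 90 AHRfl/fl nuclei, a venous-like group of 80 AHRmKO nuclei, a capillary-like group (56 and 3, led by Pgf) and 2 unnamed groups, 1 of cycling nuclei (14 and 16) and 1 led by Pgf, Tnc, Edn1 and Kit (5 and 18). Aplnr had no UMI in the 41 arterial-like nuclei, which allows up to 17.5 CPM, and stood at 209 (162 to 266) and 88.9 (62.9 to 122) in the venous-like groups and 115 in the 56 capillary-like nuclei. Tek in arterial-like nuclei was 532 (376 to 730) in the AHRfl/fl library, beside 545 (467 to 633) in its venous-like group, and 838 (669 to 1037.8) in the AHRmKO library, beside 571 (501 to 647). Tie1 in arterial-like nuclei was 294 and 259.

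The small group led by Pgf, a growth factor related to VEGF, and Edn1, the vasoconstrictor endothelin, had a high Angpt2 level in both libraries. It was 383 from 10 UMIs in 5 AHRfl/fl nuclei and 384 from 30 UMIs in 18 AHRmKO nuclei (384, 274 to 523, over both libraries). Angpt2 UMIs per 100 Mcph1 UMIs were 200 (62.3 to 746) and 214 (110 to 437). The AHRmKO nucleus with 14 Angpt2 UMIs lay in this group or in the venous-like one, which had 14 in all. The level in the 14 AHRfl/fl cycling nuclei was 352 (228 to 519) and that in the 16 AHRmKO ones 21.1 (4.34 to 61.5), under the same limit from Mcph1. The group led by Pgf had 8 of the 10 AHRmKO Apln UMIs (103 CPM) and 1 Aplnr UMI in all (9.60 CPM, 0.243 to 53.5). The groups are mostly of 1 library each except the arterial-like and cycling ones. In cycling nuclei Tek was 281 and 267, Tie1 324 and 140 (log2 ratio -1.20, -2.15 to -0.28) and Aplnr 169 and 63.2 (-1.41, -2.84 to -0.05). In arterial-like nuclei the Tek log2 ratio was 0.66 (0.09 to 1.25) and that of Tie1 -0.18 (-1.07 to 0.72).

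**Figure D4:**
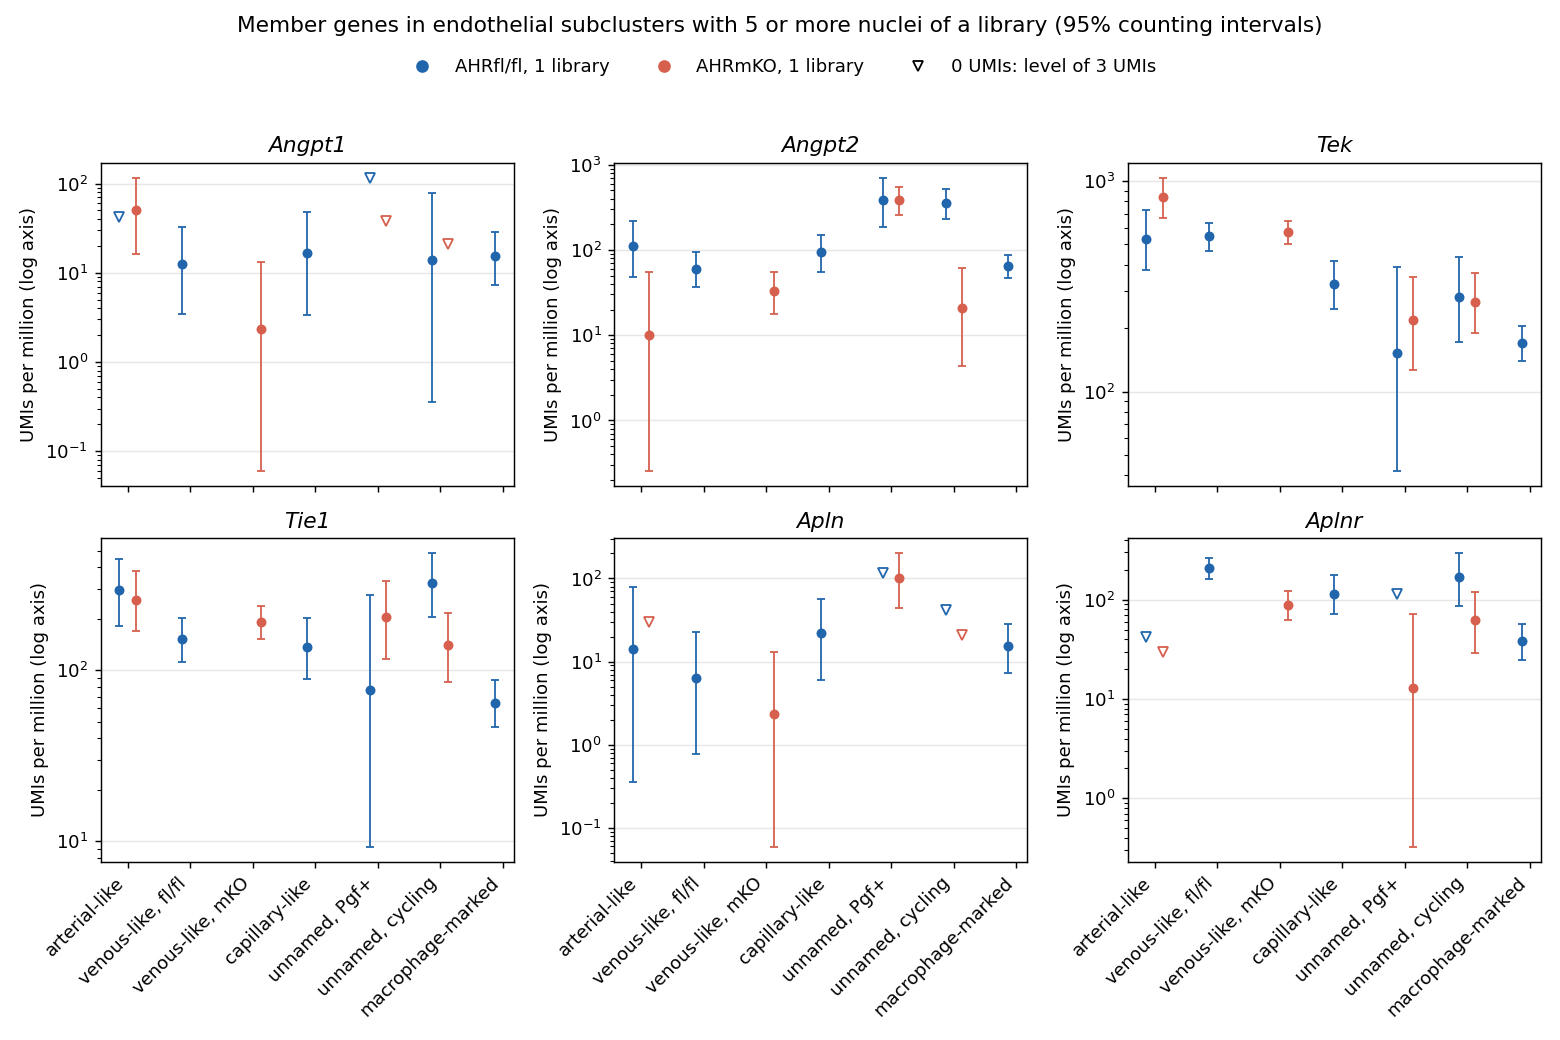
CPM of the 6 genes (log axes) in the endothelial-like subclusters, for libraries with 5 or more nuclei there, with 95% Poisson counting intervals; blue is the AHRfl/fl library, red the AHRmKO library, and open triangles mark 0 UMIs at the level of 3 UMIs. Aplnr is at 0 in arterial-like nuclei and highest in venous-like nuclei of the AHRfl/fl library (209), and Angpt2 is at 383 and 384 in the small group led by Pgf.

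The members were also counted together within single nuclei. Of 71 AHRfl/fl endothelial-like nuclei with an Aplnr UMI, 50 (70.4%) also had Tek, against 125 of the 197 without Aplnr, and in the AHRmKO library it was 24 of 27 (88.9%) against 84 of 115. Depth differed between these sets, with median UMIs of 3755 against 3643 (AHRfl/fl) and 8603 against 3510 (AHRmKO). Tie1 and Tek were both seen in 80 of 116 (69.0%) and 64 of 83 (77.1%) Tie1-positive nuclei, and Tek in 95 of 152 (62.5%) and 44 of 59 (74.6%) of those without Tie1. In each of these 4 pairs the Clopper-Pearson intervals of the shares with and without overlapped. Apln and Aplnr were found in the same nucleus 1 time in the AHRfl/fl library and 0 times in the AHRmKO library, among 6 nuclei with an Apln UMI in each.

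The pathway around the members was read from a list of 28 genes (ligands, integrins, proteases, Tek and Aplnr signalling) in endothelial-like nuclei, of which 24 had 10 or more UMIs. None was higher by 2-fold and 3 were lower, beside 5.88% and 23.8% of all genes: Svep1, a matrix protein that binds Tie1 and supports Tek signalling in lymphatics, at 25.8 and 5.10 (log2 ratio -2.23, -4.29 to -0.85), Dok2, an adaptor of Tek, and Mme, which cleaves apelin, on 10 UMIs each and with intervals that include 0. The list median was -0.29, against -0.16 for all genes. Ptprb, the phosphatase that removes phosphate from Tek, had the most UMIs (1663 and 1401), with 1263 and 1788 CPM and a log2 ratio of 0.50 (0.40 to 0.60). Foxo1, a target of Tek signalling that induces Angpt2, was at 259 and 422 (0.70, 0.48 to 0.93). The others with most UMIs were Mef2c (567 and 559), Itgb1 (377 and 341), Adam10 (249 and 244) and Itgav (286 and 170). Without the subcluster with macrophage markers 22 genes were counted, Svep1 alone was lower, beside 17.2% of all genes, and the median was -0.04 against -0.04 for all genes. The Ptprb ratio was then 0.05 (-0.06 to 0.17), that of Foxo1 0.39 (0.14 to 0.65), and Itgav stood at 162 and 165 (log2 ratio 0.02, -0.36 to 0.41).

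Among 18 genes of endothelial tip cells, the leading cells of a sprout, 17 were counted. Dll4, the Notch ligand of tip cells (40.3 and 99.5 CPM, log2 ratio 1.30, 0.78 to 1.84), Kdr, the main VEGF receptor (85.8 and 203, 1.24, 0.88 to 1.60), and Adm (7 and 10 UMIs) were higher by 2-fold, Adm with an interval that includes 0. Angptl2 was lower (22.8 and 5.10, log2 ratio -2.05, -4.12 to -0.65). The list median was 0.40, against -0.16 for all genes, of which 5.88% were higher and 23.8% lower. These counts changed without the subcluster with macrophage markers: none was then higher and 5 were lower, Plvap (329 and 147, log2 ratio -1.15), Igfbp3 (428 and 141, -1.60), Unc5b (-1.10), Kcne3 (-1.45) and Angptl2 (-2.09), and the median was -0.12, beside 6.43% and 17.2% of all genes and their median of -0.04. Kdr was then 119 and 207 (log2 ratio 0.80, 0.40 to 1.21) and Dll4 66.0 and 101 (0.62, 0.07 to 1.19). Plvap, Igfbp3, Unc5b, Kcne3, Dok2, Mme and Adm were named after their values were seen. Plvap marks fenestrated and sprouting endothelium, and Igfbp3 binds insulin-like growth factors.

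The genes most like each member were found by the Pearson correlation of log2(CPM + 10) over 14 class and library sums, among 16194 genes with 100 or more UMIs. These are descriptions: the points share 2 libraries and the classes differ in depth. With 10 CPM added, Tie1 (at most 1.27 CPM) and Aplnr (at most 2.57) hardly vary outside the endothelium. Their r rests mainly on the 2 endothelial-like sums. Angpt1 was closest to B3galt1 (r = 0.97), Lrig3 (0.97) and Bmper (0.95). Tek was closest to Timp3 (0.97), Ptchd4 (0.94) and Itga2 (0.94). Angpt2, on counts that may include reads of Mcph1, was closest to Ndufc2, Polr2k and Krtcap2 (0.93 each). Tie1 was closest to Lhx6, Klhl4 and Gm33206, each at r = 0.999, and Aplnr to Gpihbp1 (0.999), a capillary lipase anchor, Gimap5 (0.995) and Grrp1 (0.994). Apln was closest to Pcdh1 (0.98), Cttnbp2 (0.98) and Mdga2 (0.97).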

How the data were processed

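For each of the 2 libraries the authors deposited a matrix of raw counts (UMIs) with every barcode, not normalized. Per the submitters' processing notes, Cell Ranger 7.0.1 and build mm10 were used; the role of strand and of intronic reads in counting is not given in the sources used here. Barcodes with at least 2000 UMIs, 200 genes and at most 10% mitochondrial UMIs were kept, and the Scrublet scores at the top (0.4% per 1000 nuclei) were removed as doublets. Nuclei of both libraries were clustered together in scanpy 1.11.5 (2000 variable genes without the members and gene lists, 30 components, 15 neighbours, Leiden resolution 0.8). Clusters were named for the class with the largest share of markers at least 2-fold above the median of other clusters. They stayed unnamed with under 3 such markers, where another class led among the top genes, or at over 2 times the library's median depth. Parts of a mixed cluster also stayed unnamed with no marker of their own class among the leading genes, or with many markers of 3 or more other classes. This mixed cluster and the fibroblast-like nuclei were clustered again at resolution 0.5 and the endothelial-like ones at 1. These steps and the naming thresholds were chosen after seeing the data. Classes are rebuilt from markers. UMIs were summed per class and library. Gene positions are from GENCODE M21, which matched 32235 of 32285 gene IDs. Ratios and intervals were tried on simulated data with counting error alone. These held neither UMIs clumped in single nuclei nor the difference in nested genes, so the trial does not cover them. With 1 library per group there is no replicate and no p-value; all intervals cover counting error only, and values compare 2 libraries, not conditions. The members and lists were chosen with earlier results of these data known. The members were always named; from the lists, genes past 2-fold whose interval leaves out 0 and up to 6 others of most UMIs. edgeR 4.0.16 gave an alternative TMM scale.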

Additional observations from a re-analysis of the deposited data

Results flagged for a closer look

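Tek differed in direction between classes of nuclei. Its log2 ratio, the AHRmKO library over the AHRfl/fl library, was 0.70 in endothelial-like, 0.75 in fibroblast-like and 0.75 in macrophage-like nuclei, and -0.68 in satellite-like, -1.53 in immature myonucleus-like and -3.37 in myofibre-like nuclei. The difference between classes was not tested, since there is 1 library per group. Of the positive ratios, the endothelial one was 0.20 without the subcluster with macrophage markers, and the macrophage level lay under that of low barcodes. Inside the macrophage-like cluster with the most nuclei of both libraries (625 and 411) Tek was 3.61 and 2.74, from 10 and 7 UMIs (log2 ratio -0.34, -2.03 to 1.15). Of the negative ones, the satellite-like one was not seen inside its 3 clusters, whose intervals include it, the immature myonucleus-like one was -0.02 (-2.59 to 5.32, from 1 AHRfl/fl UMI) in the cluster of 67 and 1772 nuclei, and the myofibre-like one was -2.55 inside the cluster with nuclei of both libraries.

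The low barcodes (200 to under 500 UMIs), which enter no class, held more of 2 members in the AHRmKO library. Angpt1 stood at 83.2 CPM there against 44.9 in the AHRfl/fl library, and Tek at 10.9 against 6.87. The part that free RNA plays in the levels of nuclei was estimated from marker genes at 12.4% to 40.3% of UMIs in AHRmKO classes and 11.5% to 23.7% in AHRfl/fl classes. Some of these shares are too high for the members: in AHRmKO macrophage-like nuclei they would give 25.9 CPM of Angpt1 from free RNA, where 10.7 (8.95 to 12.8) was counted.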

How the results depend on the processing

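No paired analysis was possible because there is 1 library per group. Of 32 log2 ratios with 10 or more UMIs, 20 had an interval without 0, and 15 of these kept their direction under every alternative. The satellite-like Angpt1 and Tek ratios, among the 15, were above 0 inside each of the 3 clusters of that class. All 3 Tek intervals there include 0. So do those of Angpt1 in the clusters with 26 AHRmKO nuclei (-0.49 to 0.52) and 46 AHRfl/fl nuclei (-0.20 to 1.75). In the cluster with 24 AHRmKO nuclei, 1 nucleus may hold 54 of the 66 AHRmKO Angpt1 UMIs. Also among the 15 were the Angpt2 ratios of all 7 classes, on counts that may include reads of Mcph1. So were endothelial Tek and Tie1, with intervals of -0.02 to 0.43 and -0.24 to 0.48 without the subcluster with macrophage markers. The endothelial Tek ratio (0.70) was 0.25 with a minimum of 1000 UMIs, 0.94 at resolution 0.4 and 0.20 without the subcluster with macrophage markers, an alternative chosen after seeing the data. Tie1 (0.63) was 0.24 and 0.12 under the first and last of these. Aplnr (-0.62) was -1.22 with 1000 UMIs, -2.09 in nuclei thinned to 2000 UMIs and -1.23 without that subcluster. Apln (-0.02) was 1.44 when thinned, and Angpt1 (-0.80) -3.81 with free RNA subtracted by estimates that can be too high, which left 0 in the AHRmKO library. The fibroblast-like Angpt1 ratio (0.03) was -0.10 with 1000 UMIs, 0.15 with 3000, 0.16 without the mitochondrial and doublet filters, 0.13 at resolution 0.4, -0.28 thinned and 0.11 centred on the median of all genes. The macrophage-like Angpt2 ratio (-3.00) was -3.44 thinned and -2.40 with 5 CPM added. In immature myonucleus-like nuclei Angpt2 (-3.28) was -0.50 with 1000 UMIs, where a cluster of 1643 AHRmKO nuclei stayed unnamed, and Tek (-1.53) -0.95 with 5 CPM added, each short of 2-fold. Myofibre-like Tek (-3.37) ranged from -5.52 to -1.91. Directions turned for adipocyte-like Angpt1 (0.12 with 3000 UMIs), satellite-like Apln (-0.68 with each library clustered on its own), immature myonucleus-like Angpt1 (2.43 with 1000 UMIs, 0.71 with libraries clustered apart, 0.35 at resolution 1.5), and macrophage-like Tek (-0.069) and Tie1 (-0.44) at resolution 1.5. The immature myonucleus-like values were each over other nuclei: clusters of this class stayed unnamed or were named myofibre-like. With libraries clustered apart, the class also held AHRmKO clusters of 450 nuclei led by Nrcam and 602 led by Sytl2. At resolution 1.5 a cluster of 1 AHRfl/fl and 118 AHRmKO nuclei, with 12 of 13 endothelial markers raised and macrophage genes leading, stayed unnamed. The cause of the turned directions was not tested. The pathway and tip cell lists had 7 genes past 2-fold together, 4 with a minimum of 30 UMIs, 8 on the TMM scale (Nos3 added) and 6 without the subcluster with macrophage markers. Depth limits Apln everywhere and every member but Angpt1 and Angpt2 in adipocyte-like nuclei.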
